A study of Mus musculus with 18 samples.

Results

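The genes described here are 55 genes of the cell division cycle, measured in mouse dorsal skin that was left intact, stripped with tape, or stripped while the animals received an extract of winged bean, a legume. They comprise 16 genes of DNA replication, 4 genes that control entry into S phase and 35 genes of mitosis. A gene was represented by the probe set that carries its symbol alone and has the highest mean over all 18 arrays. On that basis 54 of the 55 genes had a probe set, out of 18193 genes in the table. Cyclin B1 (Ccnb1) had no probe set annotated with its symbol alone. Of the 54, 41 varied, meaning that their values ranged by at least 0.01 over the arrays, against 6842 of the 18193 genes (37.6%). The remaining 13 (Mcm4, Mcm10, Cdc6, Cdc45, Gins2, Tyms, Ccne1, E2f1, Aurkb, Ttk, Foxm1, Ncapg and Racgap1) stood at a constant value on the probe set used, which carries no information on the groups. Mcm4 and Gins2 each had another probe set that varied, and its values are given apart from the 41. The varying genes were 10 of replication, 2 of S phase entry and 29 of mitosis.

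Cells that enter the division cycle copy their DNA in S phase and separate the copies in mitosis. Cyclin-dependent kinases and their cyclins drive each step, MCM helicases and the sliding clamp PCNA work at the replication fork, and the spindle, its motors, the kinetochore and the chromosomal passenger complex act in mitosis. E2F factors control many replication genes, while many mitotic genes are induced later through CHR and CCAAT elements of their promoters. In the epidermis, dividing cells lie mainly in the basal layer, and wounding or repeated removal of the outer layer is known to raise their division.

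All mice were HR-1 males (albino, hairless) labelled as 6 weeks old, and each group held 6 arrays. The skin of NT was left unstripped. In TS, mice had tape applied to and pulled off the back 3 times per week for 4 weeks, each time until transepidermal water loss, a measure of barrier damage, was at 70 to 100 g/m2/h. WB mice were stripped likewise and were dosed orally with winged bean extract, dissolved in carboxymethylcellulose (0.3%). The dose was 200 mg/kg/day on 5 occasions a week for 5 weeks, the first of them before stripping began. The labels do not say that NT or TS mice received the vehicle alone, and no group had the extract without stripping. The tissue is whole skin, so a change in the share of dividing cells and a change of RNA per cell cannot be told apart. Values are deposited log2 values with the SD over 6 arrays, and a fold is given only where both group means lie above the array median (6.9 to 6.95). The titles call the arrays biological replicates, and p-values measure the spread among these arrays.

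The arrays of WB stood apart in their RNA controls. The 3' minus 5' difference of the beta-actin control probe sets, which grows as labelled RNA is shortened towards its 3' end, ranged from -0.65 to -0.38 on NT arrays, from 0.08 to 0.26 on TS arrays and from 5.27 to 5.96 on WB arrays. For Gapdh the ranges were -0.77 to -0.48, -0.62 to -0.31 and 3.45 to 4.41. All 6 comparisons of these values between groups passed an exact permutation test (two-sided, adjusted p = 0.0476 for Gapdh in TS against NT and 0.0026 for the others). The array NT 5 carried liver transcripts, with a mean of 15.15 over 7 liver genes where the other 17 arrays lay between 6.40 and 6.52. Whole-skin markers of basal and suprabasal keratinocytes were present in each group.

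Promoters were compared because E2F, CHR and CCAAT elements control many genes of the cycle. The choice of genes did not use these elements. RefSeq promoters (GRCm38.p6, 250 bases before to 50 bases after a start) were found for 46 of the 55 genes, 49 promoters in all. The elements searched, on both strands, were CCAAT, the CHR word TTTGAA, and 4 E2F words (TTTGGCGC, TTTCCCGC, TTTCGCGC and TTTGGCGG); hits of different elements overlapped at 2 places. The stretches below are the 250 bases before the start of 2 mitotic genes and 2 replication genes that rose in TS, read 5′ to 3′ on the strand of the gene, with each element in capitals. They are Cdk1 (chr10:69352913-69353162, minus strand), Cdc20 (chr4:118437344-118437593, minus strand), Mcm7 (the upstream of 2 listed starts, chr5:138171884-138172133, minus strand) and Rrm2 (chr12:24708004-24708253, plus strand).
Cdk1: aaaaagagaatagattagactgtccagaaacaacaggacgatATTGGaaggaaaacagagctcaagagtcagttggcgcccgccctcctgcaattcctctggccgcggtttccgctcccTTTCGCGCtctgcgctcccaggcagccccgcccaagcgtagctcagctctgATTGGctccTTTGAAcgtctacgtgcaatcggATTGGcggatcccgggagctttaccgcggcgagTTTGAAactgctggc
Cdc20: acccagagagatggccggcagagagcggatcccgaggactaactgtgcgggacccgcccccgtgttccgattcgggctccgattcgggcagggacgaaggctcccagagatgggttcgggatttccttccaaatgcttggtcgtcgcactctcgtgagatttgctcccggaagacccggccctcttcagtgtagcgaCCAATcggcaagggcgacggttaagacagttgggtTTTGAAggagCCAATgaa
Mcm7: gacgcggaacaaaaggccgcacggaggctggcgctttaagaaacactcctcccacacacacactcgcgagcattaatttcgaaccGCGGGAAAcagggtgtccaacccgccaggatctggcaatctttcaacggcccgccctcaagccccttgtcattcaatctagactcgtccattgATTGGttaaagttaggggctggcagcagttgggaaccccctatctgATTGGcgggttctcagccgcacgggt
Rrm2: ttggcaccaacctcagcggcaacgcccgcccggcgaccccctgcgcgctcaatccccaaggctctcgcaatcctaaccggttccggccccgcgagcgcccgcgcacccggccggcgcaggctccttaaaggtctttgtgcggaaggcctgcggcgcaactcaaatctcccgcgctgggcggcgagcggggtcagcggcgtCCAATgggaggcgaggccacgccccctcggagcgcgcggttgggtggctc

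In these stretches the CHR word stands in Cdk1 and Cdc20 close to the start and in neither of the replication genes, while an E2F word stands in Cdk1 and Mcm7. Cdk1, a mitotic kinase, therefore holds both kinds of element, and Rrm2 holds a CCAAT alone. The window of the other listed start of Mcm7 held a CCAAT and no E2F word. Over the promoters of mitosis members, 74.2% of 31 held the CHR word, against 12.5% of the 16 promoters of replication members, 17.9% of all 32851 promoters and 13.4% of those of genes on the array. Among the 20 promoters of mitosis members that rose in TS the share was lower, at 65.0%. Birc5, Mad2l1, Plk4 and Nusap1, which rose, held none of the elements in their listed windows. A link between the elements and the rise was not tested. An E2F word was in 43.8% of the replication promoters, 9.68% of the mitosis promoters, 2.37% of all promoters and 3.44% of those of array genes. CCAAT did not separate the classes, with 81.2% in replication and 77.4% in mitosis, against 37.4% of all promoters. A match is a run of letters and not a bound site, and the windows depend on the starts listed. No element was found in the listed windows of Ccne1 and E2f1, the 2 S phase entry members that had one. Bases outside the windows were not searched, so this does not describe the whole promoters of these 2 genes.

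Stripping was accompanied by higher transcript levels across the mitotic genes, and by fewer calls among the replication genes. In TS against NT 24 of the 41 varying members rose and 0 fell (limma, adjusted p under 0.05 and a difference of at least 0.01). That is 58.5% of the varying members and 44.4% of the 54 on the array, where 7.27% of all genes and 19.3% of varying genes rose, and 7.93% and 21.1% fell. The 24 were 21 of 29 mitosis members, 3 of 10 replication members and 0 of 2 S phase entry members. At an unadjusted p under 0.05, 37 members were higher and 0 lower, the 37 being all 29 mitosis members, 7 replication members and 1 of S phase entry. The difference was above 0 in each of the 41, from 0.03 to 1.61, with a median of 0.70 in mitosis, 0.46 in replication and 0.59 over all members, beside 0.00 over all varying genes. The classes were set side by side without a test of their difference.

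Among regulators of mitotic entry and exit, 3 of 5 varying members rose. Cdk1, the kinase that drives mitosis, ranged from 8.22 to 8.55 in NT (median 8.40) and from 8.62 to 9.78 in TS (median 9.18). The lowest TS array was above the highest NT array. Its means were 8.39 ± 0.13 and 9.22 ± 0.47, a rise of 0.84 (SE 0.18, 1.78-fold, adjusted p = 0.00356). Cyclin B2 (Ccnb2), a partner of Cdk1, rose by 0.90 (SE 0.24, 1.87-fold, adjusted p = 0.0151), and Cdc20, the activator of the anaphase-promoting complex, rose by 1.23 (SE 0.30, 2.35-fold, adjusted p = 0.00943). A second varying probe set of Cdc20 differed by 0.94 without a call (adjusted p = 0.0757). Cyclin A2 (Ccna2), at a difference of 0.33 (adjusted p = 0.0787), and the ubiquitin-conjugating enzyme Ube2c, at 1.30 (adjusted p = 0.14), did not pass. All 6 TS arrays of Ube2c (8.29 to 10.24) lay above its NT arrays (7.77 to 8.23), and its WB arrays, which share the estimate of variance, spread from 6.21 to 9.91.

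Both varying members of the chromosomal passenger complex rose. Cdca8 (borealin), a subunit that places the complex on centromeres, ranged from 7.50 to 7.78 in NT (median 7.55) and from 8.30 to 9.80 in TS (median 9.20). The groups did not overlap. The rise was 1.52 (SE 0.27, 2.87-fold, adjusted p = 0.00118), and the other 2 varying probe sets of Cdca8 rose by 0.86 and 0.88. Birc5 (survivin), another subunit, ranged from 8.08 to 8.32 in NT (median 8.22) and from 8.46 to 9.89 in TS (median 9.26), again without overlap, and rose by 1.04 (SE 0.24, 2.06-fold, adjusted p = 0.00747). The kinase of the complex, Aurkb, was constant on its probe set. Cdca3, which helps destroy the mitotic inhibitor Wee1, rose from 7.72 ± 0.13 to 8.84 ± 0.49 (1.12, SE 0.25, 2.17-fold, adjusted p = 0.00538), with TS values from 8.15 to 9.40 (median 8.91) all above the NT values of 7.56 to 7.85 (median 7.74).

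At the kinetochore and its checkpoint the size of the rises varied widely. The centromeric histone Cenpa rose by 1.07 (SE 0.29, 2.11-fold), and the checkpoint genes Mad2l1 and Bub1 rose by 0.98 each (SE 0.27 and 0.25). Cenpe, the kinetochore motor, had the second smallest p in mitosis at a small difference on the probe set used: 7.23 to 7.32 in NT (median 7.28) and 7.38 to 7.53 in TS (median 7.47), without overlap, a rise of 0.19 (SE 0.03, 1.14-fold, adjusted p = 0.00133). A second varying probe set of Cenpe had a larger difference of 0.73 without a call (SE 0.24, limma, adjusted p = 0.0551). Bub1 had an NT mean of 6.66, under the array median, so its rise has no fold here. Bub1b, a further checkpoint kinase, rose by 0.30 (SE 0.08), and its second varying probe set differed by 0.40 without a call (limma, adjusted p = 0.0955). Cenpf, a large kinetochore protein, at 0.43 (adjusted p = 0.0699), and Cdca5 (sororin), which protects cohesion of sister chromatids, at 0.60 (adjusted p = 0.0904), did not pass.

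Among spindle and cytokinesis genes, the kinesins Kif2c (0.87, SE 0.22) and Kif20a (0.59, SE 0.18) rose, as did the spindle proteins Nusap1 (0.52, SE 0.17), Hmmr (0.59, SE 0.17), Prc1 (0.34, SE 0.09) and Tpx2 (0.20, SE 0.06). The kinesins Kif11, which separates the spindle poles, at 0.33 (adjusted p = 0.167), and Kif23, at 0.14 (adjusted p = 0.182), did not pass. Of the mitotic kinases, Plk4, which controls centriole duplication, rose by 0.70 (SE 0.21, adjusted p = 0.0369) and Melk by 0.22 (SE 0.06). Plk1 had the same difference of 0.70 with a larger error (SE 0.27, adjusted p = 0.0969), and Aurka differed by 0.26 (adjusted p = 0.0936).

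Mki67, the most used marker of dividing cells, ranged from 8.58 to 8.98 in NT (median 8.75) and from 8.99 to 10.02 in TS (median 9.62). The groups touched without overlap, and the rise was 0.84 (SE 0.24, 1.79-fold, adjusted p = 0.0255). Top2a, the topoisomerase that untangles chromosomes, ranged from 8.41 to 8.63 in NT (median 8.53) and from 8.66 to 9.79 in TS (median 9.32). The lowest TS array stood just above the highest NT array, and the rise was 0.79 (SE 0.22, 1.73-fold, adjusted p = 0.0224).

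**Figure D1:**
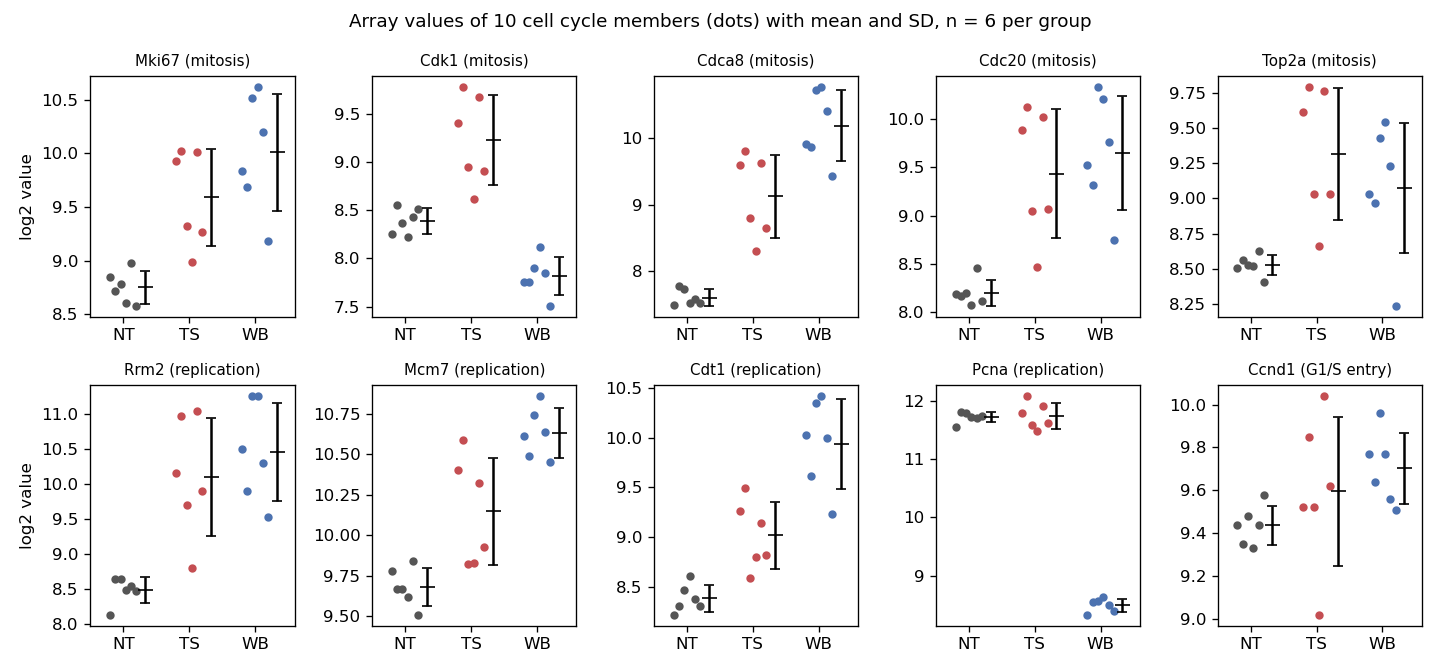
Deposited log2 values of 10 members in NT, TS and WB; each dot is an array (n = 6 per group) and the bar beside it gives mean and SD. In the 5 mitosis panels the TS dots lie above the NT dots, Pcna is level in NT and TS (means 11.72 and 11.75) and falls to 8.49 in WB, and Ccnd1 overlaps in all groups.

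Calls among the replication genes were fewer, and differences between called and uncalled members were not tested. Rrm2, the small subunit of ribonucleotide reductase, which makes the building blocks of DNA, ranged from 8.14 to 8.65 in NT (median 8.52) and from 8.80 to 11.04 in TS (median 10.03). No TS array reached down to the NT range, and the rise of 1.61 (SE 0.37, 3.04-fold, adjusted p = 0.00675) was the highest among all members on the probe sets used. The other 2 varying probe sets of Rrm2 rose by 1.0 and 1.2, less than the 1.30 of Ube2c. Its partner, the large subunit Rrm1, ranged from 8.61 to 8.92 in NT (median 8.74) and from 8.86 to 9.70 in TS (median 9.15). Those ranges overlapped, and the difference of 0.46 (SE 0.16) did not pass (adjusted p = 0.0583), though it did without TS 3, TS 4, TS 6 or WB 6 (adjusted p of 0.0323 to 0.0407).

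The other 2 replication members that rose belong to the licensing of origins, the loading of helicases before S phase. Mcm7, a helicase subunit, went from 9.51 to 9.84 in NT (median 9.67) to 9.82 to 10.59 in TS (median 10.12), and its rise was 0.47 (SE 0.13, 1.38-fold, adjusted p = 0.0188). Cdt1, the factor that loads the helicase, went from 8.22 to 8.61 (median 8.35) to 8.59 to 9.49 (median 8.98), and its rise was 0.63 (SE 0.19, 1.55-fold, adjusted p = 0.0358). In both genes the lowest TS array lay just under the highest NT array. The other helicase subunits did not pass: Mcm5 differed by 0.88 (SE 0.37, adjusted p = 0.145), Mcm3 by 0.47 (adjusted p = 0.14), Mcm6 by 0.26 (adjusted p = 0.738) and Mcm2 by 0.13 (adjusted p = 0.383). Mcm2 lay at 8.02 to 8.11 in NT (median 8.09) and 8.02 to 8.41 in TS (median 8.20), and Mcm3 at 8.05 to 8.40 (median 8.25) and 8.13 to 9.39 (median 8.72), overlapping in each case.

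Pcna stood level. It ranged from 11.56 to 11.82 in NT (median 11.73) and from 11.49 to 12.09 in TS (median 11.71), a difference of 0.03 (SE 0.09, adjusted p = 1). The ranges overlapped throughout, and Pcna held the smallest difference among the varying members on the probe sets used. Uhrf1, which keeps DNA methylation through replication, differed by 0.39 (adjusted p = 0.173). On varying probe sets that were not the ones used, Mcm4 differed by 0.58 (adjusted p = 0.205) and Gins2 by -0.03, without a call in either.

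The S phase entry genes did not pass. Cyclin E2 (Ccne2), a partner of the kinase that starts replication, ranged from 6.71 to 7.06 in NT (median 6.92) and from 6.88 to 7.97 in TS (median 7.34), a difference of 0.48 (SE 0.18, adjusted p = 0.0863). Cyclin D1 (Ccnd1), which couples growth signals to the cycle, ranged from 9.33 to 9.58 in NT (median 9.44) and from 9.02 to 10.04 in TS (median 9.57), a difference of 0.15 (SE 0.13, adjusted p = 0.576). Both overlapped between groups.

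**Figure D2:**
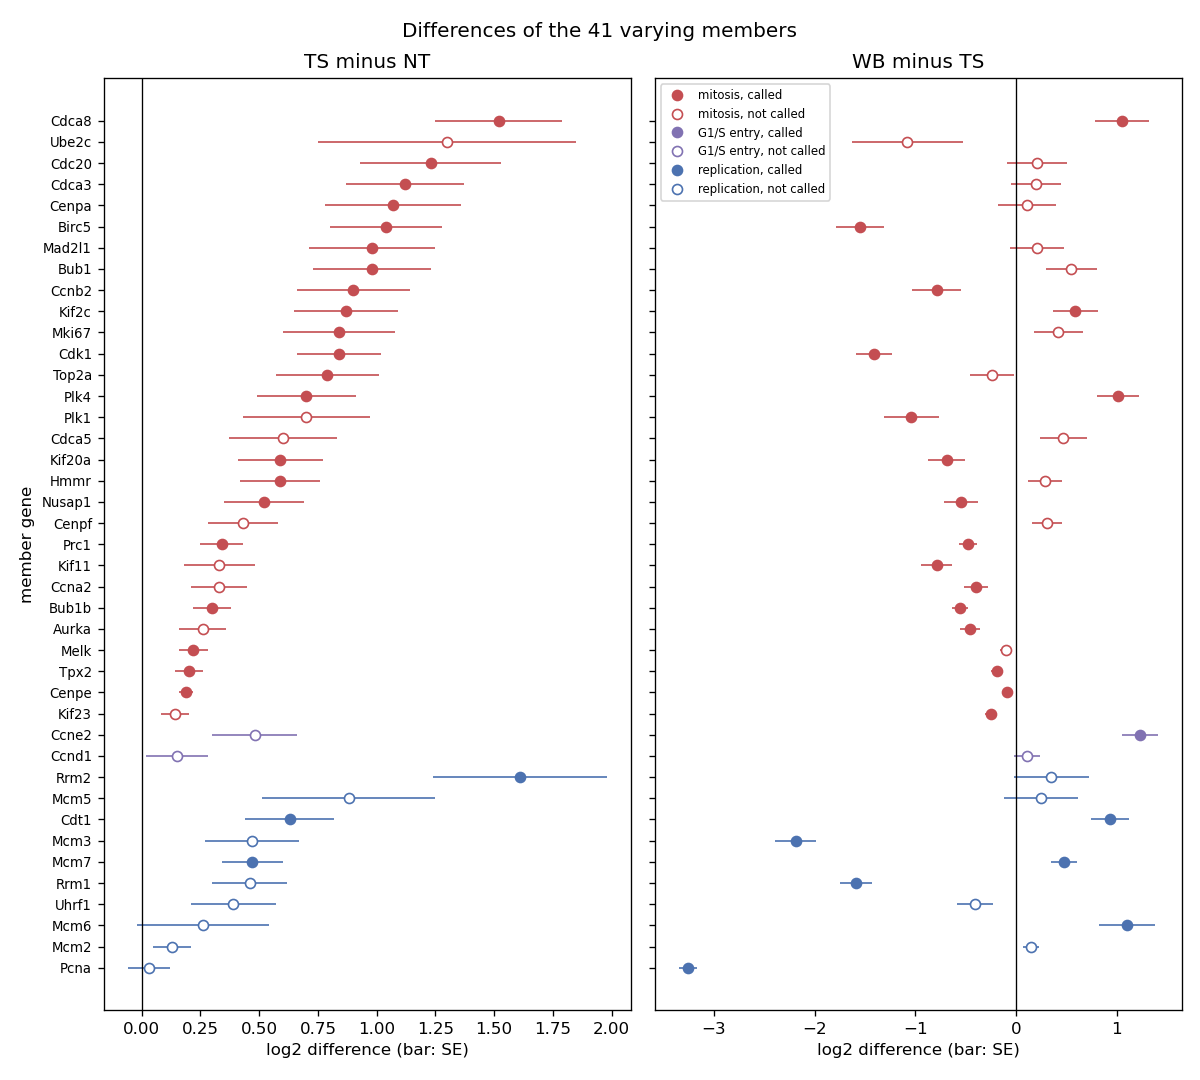
Log2 difference with SE for the 41 varying members, TS minus NT at left and WB minus TS at right; filled dots passed the test and colours mark the classes. At left each dot lies above 0, up to 1.61 in Rrm2, while at right they spread from -3.26 in Pcna to 1.23 in Ccne2.

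Groups that do not overlap were counted as well. In 17 of the 41 members, 16 of mitosis and Rrm2, each TS array lay above each NT array, where 12.4% of varying genes did so. The rise was uneven among the TS arrays. TS 1, TS 2 and TS 5 held the 3 highest TS values of nearly every member (40, 41 and 41 of 41), TS 2 was the highest in 33 and TS 4 the lowest in 37. The mean over the 29 mitosis members was 8.66, 8.79 and 8.70 in TS 1, TS 2 and TS 5, and 8.12, 7.83 and 8.10 in TS 3, TS 4 and TS 6, against 7.59 to 7.77 over the NT arrays. Over the 10 replication members it was 9.59, 9.95 and 9.68 in the first 3 and 8.96, 8.76 and 9.07 in the others, against 8.68 to 8.92 in NT. In mitosis all TS arrays stood above NT, whereas in replication TS 4 fell inside the NT range. The SD in TS was above that in NT in all 41 members, with medians of 0.44 and 0.12.

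Of the 24 rises, 14 held without each array in turn. Without TS 1, TS 2 or TS 5 the count was 14, with 12 mitosis and 2 replication members in each case. Without TS 4 it was 33, with 26 mitosis members, 6 replication members and Ccne2, which was also called without TS 6. Cdt1, Mki67, Top2a, Plk4, Bub1b, Kif20a, Nusap1, Tpx2, Hmmr and Melk were the genes lost without at least 1 array, Mki67 at adjusted p of 0.0516 to 0.0625 and Top2a at 0.0521 to 0.0565. Without NT 5, the array with liver transcripts, 21 rose.

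**Figure D3:**
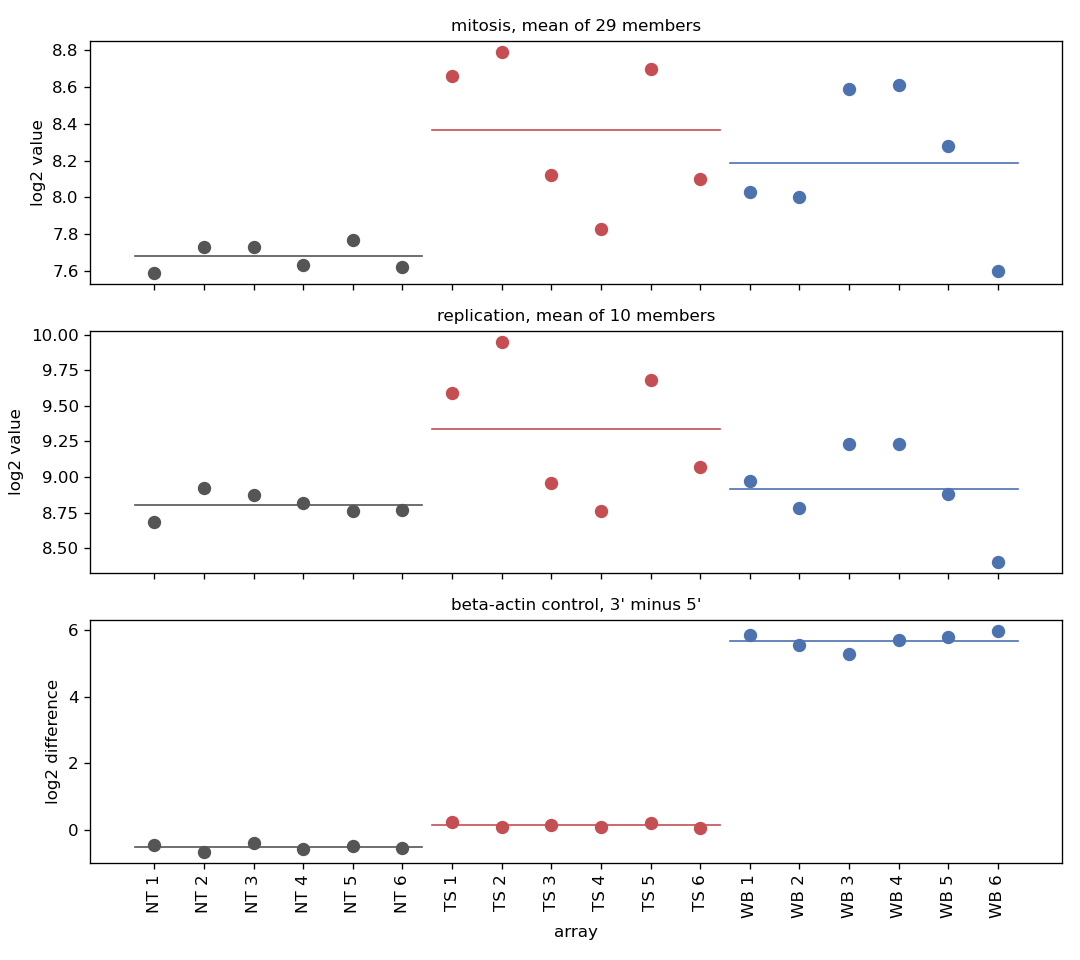
Mean log2 value per array of the 29 mitosis members (top) and the 10 replication members (middle), with the beta-actin 3' minus 5' log2 difference (bottom); lines are group means. TS 1, TS 2 and TS 5 are the high TS arrays in both classes, WB 6 is the lowest WB array at 7.60 and 8.40, and the actin control is above 5 only in WB.

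Other skin markers also differed between TS and NT, where 19.3% of varying genes rose and 21.1% fell. The wound-induced keratins, of which 3 of 4 rose and 0 fell, had a mean of 9.90 to 10.76 in NT, and in TS 13.4, 14 and 14.11 in TS 1, TS 2 and TS 5 against 12.63 to 13.30 in the others. Of 7 basal keratinocyte markers 3 rose (Krt14, Itga6 and Trp63) and Krt15 fell, with list means of 10.53 to 11 in NT and 10.76 to 11.26 in TS. Suprabasal markers rose in 6 of 7 (NT 10.76 to 11.43, TS 11.79 to 12.41). Markers of hair follicle matrix and root sheath fell in 10 of 13 (NT 9.10 to 9.98, TS 7.0 to 9.3, lowest in TS 4), and those of macrophages and dendritic cells in 9 of 11 (NT 11.08 to 11.71, TS 10.41 to 10.86). Both varying T cell markers fell, as did both of B and plasma cells. Skeletal muscle markers fell in 6 of 8 (median -2.13) and adipocyte markers in all 4 that varied (median -2.14), mast cell markers rose in 4 of 7 (median 0.61), and 0 of 6 fibroblast markers were called. The part of these cell types in the levels of the cycle genes was not tested.

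Other genes of the same pathways were read from lists that do not hold the members. These lists too were chosen with earlier results of these data known. Their counts are to be read beside the 7.27% of all genes and 19.3% of varying genes that rose, and the 7.93% and 21.1% that fell. Of 57 other mitosis genes on the array, 17 rose and 0 fell (32 varied, median 0.59, 28 higher at an unadjusted p). They included Zwint, a kinetochore scaffold (0.92, SE 0.12, adjusted p = 0.000103), Cks1b, which assists cyclin-dependent kinases (1.26, SE 0.25), Pttg1 (securin), which holds back separase (1.15, SE 0.23), and Cdkn3, a phosphatase of those kinases (0.67, SE 0.13). Of 38 other replication genes 9 rose and 0 fell (24 varied, median 0.22), among them the origin subunits Orc6 (0.36, SE 0.07) and Orc4 (0.16, SE 0.04), the kinase activator Dbf4 (0.75, SE 0.16) and geminin (Gmnn), the inhibitor of Cdt1 (0.68, SE 0.16).

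Regulators outside the S phase and mitotic machinery went both ways, to be read beside the same shares of all genes and of varying genes. Of 25 other G1 cyclins, kinases and E2F factors 5 rose and 2 fell (14 varied, median 0.11): the late repressor E2f8 (0.99, SE 0.18), the E2F partner Tfdp1 (0.39, SE 0.08) and Lin9, a subunit of the complex that binds CHR elements (0.35, SE 0.08), rose, and cyclin D2 (Ccnd2) fell by 0.92 (SE 0.11, adjusted p = 4.49e-05). Of 23 inhibitors and quiescence genes 2 rose and 4 fell (18 varied, median 0.00). Ccng1, an atypical cyclin, fell by 0.98 (SE 0.11), the inhibitor Cdkn2c by 0.48 (SE 0.06) and the growth arrest gene Gas6 by 0.77 (SE 0.16), while Gas1 rose by 0.62 (SE 0.10). Of 21 DNA damage checkpoint and repair genes 0 rose and 0 fell (6 varied, 4 higher at an unadjusted p).

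The comparison of WB with TS asked how stripped skin differed with the extract and without it, and the members moved both ways. Of the 41, 7 were higher and 17 lower in WB, 17.1% and 41.5%, where 48.4% of varying genes were higher and 39.2% lower (18.2% and 14.8% of all genes). The lower share is thus near the background, and the higher share is below it. By class, 3 replication members were higher and 3 lower, 3 mitosis members higher and 14 lower, and 1 of the S phase entry members higher. The replication balance rests on the probe set used: with the mean of a gene's varying probe sets 1 was higher and 9 lower, and with the probe set of largest variance 1 and 8. In mitosis these gave 2 and 11, and 3 and 11. The median was -0.19 in mitosis and 0.20 in replication, against 0.16 over all varying genes. In 1 member (Ccne2) all WB arrays lay above all TS arrays and in 8 all lay below, where 41.3% and 34.7% of varying genes did so. The actin and Gapdh 3' minus 5' values moved with this contrast, by 5.53 and 4.14, and their part in the differences was not tested.

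Among the lower genes Pcna led. Its WB values ran from 8.33 to 8.63 (median 8.52), far below the TS and NT ranges given above, and it fell by 3.26 (SE 0.09, 9.56-fold lower, adjusted p = 2.93e-14). Mcm3 in WB ran from 6.13 to 6.73 (median 6.55), under every TS array, and fell by 2.19 (SE 0.20, adjusted p = 9.72e-08). Rrm1 ran from 7.13 to 7.83 (median 7.72), also under every TS array, and fell by 1.59 (SE 0.16, adjusted p = 2.78e-07). Cdk1 ran from 7.51 to 8.12 (median 7.81), below all TS and all NT arrays, and fell by 1.41 (SE 0.18, 2.65-fold, adjusted p = 4.46e-06). Birc5 ran from 7.16 to 8.25 (median 7.63), under every TS array, and fell by 1.55 (SE 0.24, adjusted p = 5.34e-05). Plk1 fell by 1.04 (SE 0.27), Kif11 by 0.79 (SE 0.15) and Ccnb2 by 0.79 (SE 0.24).

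Among the higher genes Ccne2 led, with WB values of 8.25 to 8.87 (median 8.62), above every TS array, and a rise of 1.23 (SE 0.18, 2.35-fold, adjusted p = 2.41e-05). Mcm6 ranged from 7.58 to 9.31 in TS (median 8.39) and from 9.07 to 9.95 in WB (median 9.65), overlapping, and rose by 1.10 (SE 0.28, adjusted p = 0.00349). Plk4 ranged from 7.58 to 8.87 in TS (median 8.37) and from 8.76 to 9.76 in WB (median 9.36), and rose by 1.01 (SE 0.21, adjusted p = 0.000902). Cdt1 rose by 0.93 (SE 0.19, adjusted p = 0.000769), with WB values of 9.23 to 10.42 (median 10.02) that overlapped those of TS. Cdca8 rose by a further 1.05 (SE 0.27, adjusted p = 0.00456), to 9.42 to 10.76 (median 10.16), and Mcm7 by 0.48 (SE 0.13), to 10.45 to 10.86 (median 10.62). Probe sets were chosen by their mean over all arrays, WB included, which favours those high in WB. Another Mcm6 probe set had higher NT and TS means (9.05 and 9.26) than the one used (8.21 and 8.47). Another of Cdca8 stood at 7.96 and 8.84, against 7.61 and 9.13 on the one used. Both were called lower in WB than in TS (-1.53 and -1.03), so these 2 rises depend on the choice.

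Other members were not called different between WB and TS. Mki67 lay at 9.18 to 10.62 in WB (median 10.02), a difference of 0.42 from TS (adjusted p = 0.177); without WB 6 it was called higher by 0.59 (adjusted p = 0.038). Top2a lay at 8.24 to 9.54 (median 9.13), a difference of -0.24 (adjusted p = 0.43). Rrm2, on the probe set used, differed by 0.35 (adjusted p = 0.513), Cdca3 by 0.20 (adjusted p = 0.629), Mcm2 by 0.15 (adjusted p = 0.131) and Ccnd1 by 0.11 (adjusted p = 0.593). Cenpe was called lower by 0.09 (SE 0.03, adjusted p = 0.0456) and lost the call without any of 12 arrays, at adjusted p up to 0.111. On varying probe sets that were not the ones used, Gins2 differed by -0.97 (adjusted p = 9.40e-08) and Mcm4 by 0.68 (adjusted p = 0.054).

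Other genes of these pathways also had calls both ways, to be read beside the 18.2% of all genes that were higher and the 14.8% that were lower. Of the 57 other mitosis genes 11 were higher and 3 lower in WB than in TS (median 0.33). The spindle pole protein Ckap5 fell by 1.33 (SE 0.04), the phosphatase Cdc25b, which activates Cdk1, by 1.19 (SE 0.12) and Cdkn3 by 0.95 (SE 0.13), while Zwint rose by a further 1.24 (SE 0.12). Mitosis members had the reverse balance, with 3 higher and 14 lower (median -0.19). Of the 38 other replication genes 11 were higher and 12 lower (median -0.02). Rpa3, of the protein that coats single-stranded DNA, fell by 1.91 (SE 0.07), the clamp loader subunit Rfc3 fell by 1.8 (SE 0.12) and Orc3 by 1.08 (SE 0.07), and Orc4 rose by 0.61 (SE 0.04). Inhibitors and quiescence genes were higher in 13 and lower in 5 of 23, G1 cyclins, kinases and E2F factors in 9 and 4 of 25, and damage checkpoint and repair genes in 4 and 1 of 21.

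The WB arrays also differed among themselves. WB 6 was the lowest WB array in 39 of the 41 members, WB 3 was the highest in 19 and WB 4 in 21. The mitosis mean was 8.59 and 8.61 in WB 3 and WB 4, 8.03, 8.0 and 8.28 in WB 1, WB 2 and WB 5, and 7.60 in WB 6, the last inside the NT range. Without WB 6, 12 members were higher in WB in place of 7, among them 7 mitosis members in place of 3. The wound-induced keratins, of which 3 of 4 fell and 0 rose, were also lowest in WB 6 (9.55) and highest in WB 3 and WB 4 (11.34 and 11.04). Basal keratinocyte markers fell in 5 of 7 and rose in 2, with list means of 9.64 to 10.35 in WB. All 7 mast cell markers fell (median -2.09), as did all 3 varying endothelial markers (median -2.4), 7 of 11 of macrophages and dendritic cells (median -1.43) and 5 of 8 of skeletal muscle (median -3.59). Of varying genes, 48.4% were higher and 39.2% lower in WB than in TS. The part of these cell types was not tested.

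Other probe sets of the same genes bear on the direction of the WB differences. Of the members, 15 had at least 2 varying probe sets, 36 in all. In TS against NT the probe sets of each of the 15 had the same sign, where 21.8% of 2191 such genes were mixed. In WB against TS 10 of the 15 were mixed, beside 52.9% of all such genes, and 3 (Mcm6, Mcm7 and Cdca8) had a call in each direction, beside 44.9%. The 4 probe sets of Mcm7 gave 0.48, 0.53, -1.69 and -3.26, although all 4 rose in TS by 0.43 to 0.59. Those of Cdca8 gave 1.05, -1.03 and -1.63, those of Mcm6 1.10 and -1.53, and those of Rrm2 0.35, -1.38 and -1.98. For Mcm5 they gave 0.25 and -2.05 and for Mcm2 0.15 and -1.63. Mixed signs also came from Cdc20 (0.21 and -1.19), Bub1b (-0.56 and 0.28), Cenpe (-0.09 and 0.57) and Ccnd1 (0.46, 0.11 and -0.95). The WB direction of these 10 genes is thus that of the probe set used. Members outside the 15 had no other varying probe set, so their WB direction could not be checked in this way. They include Pcna, Ccne2, Cdk1, Birc5, Plk1, Cdt1, Plk4 and Kif2c.

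**Figure D4:**
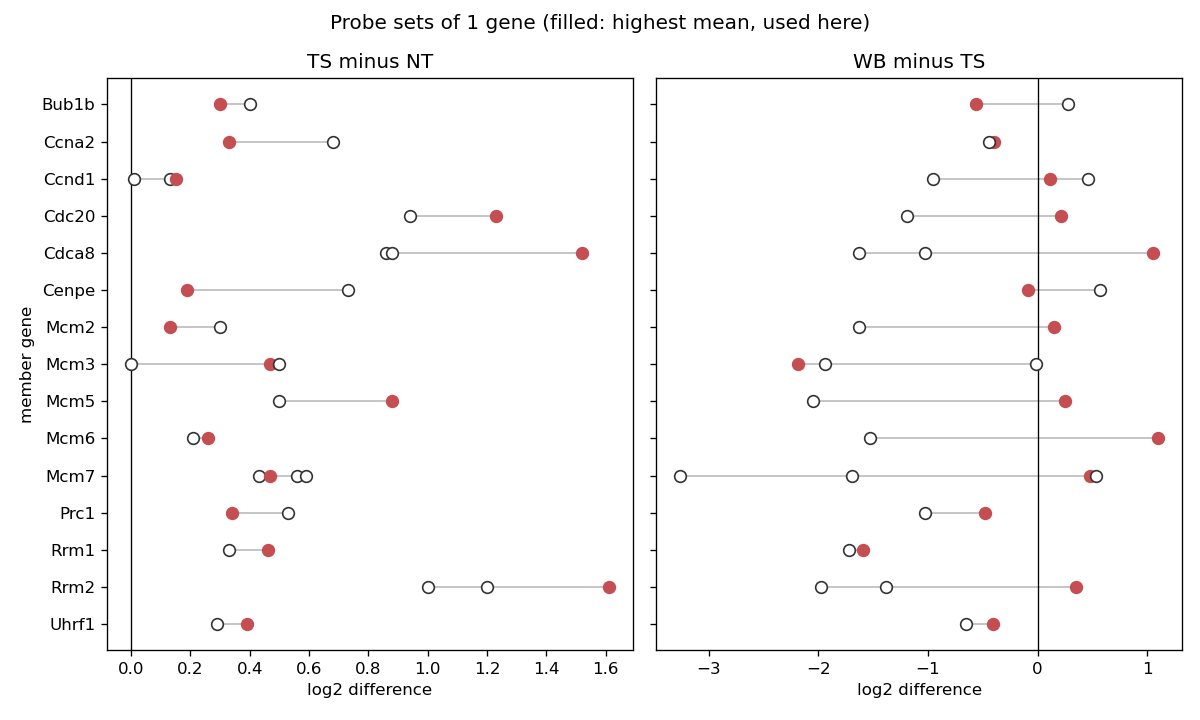
Log2 difference of every varying probe set of the 15 members with more than 1, TS minus NT at left and WB minus TS at right; filled dots are the probe sets used and lines join probe sets of 1 gene. At left the dots of each gene lie on the same side of 0, at right those of 10 genes lie on both sides.

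The kind of probe set also moved with the direction, in a split made after the values were seen. Among members read by a probe set with the plain suffix _at, 1 was higher and 12 lower in WB of 21. Among those read by _a_at, _s_at or _x_at probe sets, which can match several transcripts or related sequences, 6 were higher and 5 lower of 20. Over all varying genes the shares were 45.4% higher and 41.3% lower for the first kind and 55.1% and 34.9% for the second. The levels of Mcm5, Mcm6, Rrm2, Cdc20 and Kif2c come from _x_at probe sets and are uncertain where a near-identical sequence shares the probes.

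In WB against NT, the share of members called was close to that of varying genes for rises and below it for falls. Of the 41, 20 members were higher and 6 lower, where 46.9% of varying genes were higher and 41.3% lower (17.6% and 15.5% of all genes). The members' shares were 48.8% and 14.6%. Higher were 13 of 29 mitosis members (44.8%), 6 replication members and Ccne2, and lower were 3 mitosis and 3 replication members. The 6 higher and 3 lower replication members became 2 and 6 with the mean of varying probe sets and 3 and 8 with the probe set of largest variance. On the probe sets used, Cdca8 stood 2.57 above NT (SE 0.27), Rrm2 1.96 (SE 0.37), Ccne2 1.71 (SE 0.18), Plk4 1.71 (SE 0.21), Bub1 1.53 (SE 0.25), Cdc20 1.44 (SE 0.30) and Mki67 1.26 (SE 0.24). Lower were Pcna (-3.23, SE 0.09), Mcm3 (-1.73, SE 0.20), Rrm1 (-1.13, SE 0.16), Cdk1 (-0.57, SE 0.18), Kif11 (-0.46, SE 0.15) and Bub1b (-0.27, SE 0.08). In 17 members every WB array lay above every NT array and in 5 every one lay below, where 43.1% and 37.4% of varying genes did so. Other probe sets of some of these genes went the other way: Cdca8 had a probe set called lower (-0.77, adjusted p = 0.00345), as had Rrm2 (-0.98, adjusted p = 0.00328), Bub1b had a probe set called higher (0.68, adjusted p = 0.00128), and that of Cdc20 stood at -0.25 without a call. Of the 15 members with several probe sets, 8 had calls in both directions in this contrast, beside 40.1% of such genes. On varying probe sets that were not the ones used, Mcm4 differed from NT by 1.27 (adjusted p = 0.00109) and Gins2 by -0.99 (adjusted p = 6.21e-08).

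Set side by side by their calls, on the probe sets used, Mki67, Cdca3, Cenpa, Mad2l1, Bub1, Hmmr, Rrm2 and Cdc20 were higher than NT in both stripped groups and were not called different between them. Rrm2 and Cdc20 had other probe sets that were called lower in WB than in TS. Cdt1, Plk4, Kif2c, Mcm7 and Cdca8 were called higher in TS than in NT and higher again in WB than in TS. Mcm7 and Cdca8 had other probe sets that were lower in WB, and Cdt1, Plk4 and Kif2c had no other varying probe set. Kif2c lost its call in WB against TS without TS 3, TS 4, TS 6, WB 3, WB 4 or WB 5 (limma, adjusted p of 0.0752 to 0.0895). Cdk1, Birc5, Ccnb2, Kif20a, Nusap1, Tpx2, Prc1, Bub1b and Cenpe rose in TS and were lower in WB than in TS. Bub1b and Cenpe each had another probe set that differed the other way between WB and TS, without a call. Pcna, Mcm3, Rrm1 and Kif11 were not called in TS against NT and were called lower in WB than in either group. The comparisons share the TS or the NT arrays, so their values are not independent of each other.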

How the data were processed

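Per the labels' protocols, dorsal skin RNA was taken up in Isogen, cleaned on RNeasy columns, and 100 ng of it was labelled for Affymetrix mouse arrays. The deposited values, 1 for each probe set of an array, were read as log2 from their range (2.93 to 19.04); the base, the summarisation and the normalization by the authors are not given in the sources used here, and folds rest on base 2. The number of arrays limits the precision.

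The table has 45101 probe sets. Without 64 controls, 45037 entered the fit, and the range of 33091 was below 0.01. Symbols came from the platform annotation (34945 probe sets with 1 symbol, 932 with several, 9160 with none); the rule for representing a gene by a probe set is that of the report. A single limma model (lmFit, then eBayes; limma 3.58.1, R 4.3.3) held the 18 arrays and the 3 groups, without covariates. Tests were two-sided, and p-values of a comparison were adjusted by Benjamini-Hochberg across the 45037 probe sets. A gene was called at adjusted p under 0.05 and a difference of at least 0.01. The fit was tested on simulated data. The members, their classes and the other gene lists were chosen with earlier results of these data known. Values were given for the 5 replication, 5 mitosis and 2 S phase entry members with the smallest p in TS against NT, the 4 with the smallest p in each direction of WB against TS, and Mki67, Cdk1, Pcna, Mcm2, Top2a and Ccnd1; for other lists, up to 4 called genes with the smallest p in a comparison. Other members were named by role. The control differences had exact permutation tests over 6 against 6 arrays, adjusted over 6 comparisons, with a smallest possible p of 0.00216. Alternatives were 2 other scalings, a filter on dim probe sets, varying probe sets alone, array weights, the pair of groups alone, the replicate number as a block, 2 other ways of representing a gene, a minimum of 1.5-fold, and leaving out each array. Sequences are RefSeq's.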

Additional observations from a re-analysis of the deposited data

Results flagged for a closer look

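Over the 18 members with full values, 54 groups of 6 arrays were searched for an array far from the rest by Dixon's ratio, the gap to the nearest array over the whole range (95% critical value); chance alone flags about 5% of groups. Rrm1, the large subunit of ribonucleotide reductase, stood at 7.13 on WB 6, below the other WB arrays at 7.62 to 7.83 (ratio 0.695). Rrm2, the small subunit, stood at 8.14 on NT 1, below the other NT arrays at 8.48 to 8.65 (ratio 0.668). WB 6 was the lowest WB array in 39 of the 41 varying members, and NT 1 the lowest NT array in 17.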

How the results depend on the processing

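The 24 rises in TS against NT numbered 17 to 32 over the 10 alternatives other than leaving out an array, and 0 members fell under each of these. Leaving out each array gave 14 to 33 higher in TS against NT and 0 lower, 6 to 12 higher and 16 to 18 lower in WB against TS, and 19 to 22 higher and 6 to 7 lower in WB against NT. In WB against TS the 7 higher became 13 with quantile normalization, 11 with median centring, 11 with array weights and 4 with the mean of a gene's varying probe sets, and the 17 lower became 9 at a minimum of 1.5-fold. In WB against NT the 6 lower became 12 with the probe set of largest variance and 3 at 1.5-fold. Quantile normalization moved the median of varying probe sets in WB against TS from 0.09 to 0.19.

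With the probe set of largest variance WB minus TS turned to -0.95 in Ccnd1, -1.63 in Mcm2, -1.53 in Mcm6, -3.26 in Mcm7 and 0.57 in Cenpe, and WB minus NT to -0.93 in Ccnd1, -1.32 in Mcm2, -1.32 in Mcm6 and -2.70 in Mcm7. With the mean of varying probe sets WB minus TS turned to -0.54 in Cdca8, -0.74 in Mcm2, -0.21 in Mcm6, -0.98 in Mcm7, -1.0 in Rrm2 and 0.24 in Cenpe, and WB minus NT to -0.52 in Mcm2 and -0.47 in Mcm7. These alternatives read other probe sets of the gene; the cause of their disagreement was not tested.

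Replicate numbers did not pair the arrays (18 same-numbered pairs, r of -0.268 to 0.138, 4 over 0.1). With the replicate number as a block, 20 rose and 0 fell in TS against NT, 6 and 16 in WB against TS, and 19 and 6 in WB against NT. Signal over background is not in the table, so a low level such as that of Bub1 in NT limits the size of its difference.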
